A study of Danio rerio with 30 samples.

Results

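The spleens of zebrafish kept at 24 °C as embryos and larvae were compared between fish given lipopolysaccharide (LPS) and control fish. The comparison takes the 5 LPS libraries (replicates 1, 2, 3, 4 and 8) and the 5 control libraries (replicates 2, 3, 4, 5 and 8) whose labels give this incubation temperature, which are 10 of the 30 libraries in the series, across all genes. Both groups are AB strain fish of 100 days that were held at 28 °C as adults, and polyadenylated RNA of the whole spleen was sequenced. LPS fish were injected in the body cavity under anaesthesia with 2 µl of a 50 mg/ml solution of LPS from Pseudomonas aeruginosa, and their spleens were taken 12 h later. How the controls were treated, whether fish were male or female and at which hour spleens were taken is not in the labels, so handling, the hour and LPS cannot be told apart. Each library is taken as 1 fish, which the labels do not state, and p-values measure only the spread between these samples. The remaining 20 libraries come from fish incubated at 28 or 32 °C.

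LPS is a cell wall component of Gram-negative bacteria. In mammals it is sensed by Toll-like receptor 4, which activates NF-kB and AP-1 transcription factors and so induces cytokines, chemokines, their inhibitors and the enzymes of activated macrophages. Fish respond to LPS as well, although the mammalian receptor complex is not conserved in zebrafish in the same form. The spleen filters blood and holds macrophages, neutrophils, lymphocytes and, in fish, many red blood cells. In bulk tissue, fewer cells of a type and less RNA per cell cannot be told apart.

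Library totals at 24 °C ranged from 16440020 to 22976284 counts. All 10 libraries held transcripts that mark the spleen and its blood. Transcripts of TLX1 (ENSDARG00000003965), a transcription factor needed to form the spleen, were 251, 108, 86.3, 159.7 and 175 CPM in the controls and 228, 198, 192, 202 and 286 CPM in the LPS fish, in the order of control replicates 2, 3, 4, 5 and 8 and of LPS replicates 1, 2, 3, 4 and 8, which is kept for all values by library. CPM express a count as a share of the TMM-scaled library size. Control replicate 4 stood apart. Ovary markers summed to 44.5, 36.6, 14884, 57.7 and 63.5 CPM of total counts in the controls and 23.0 to 51.8 in the LPS fish, so that replicate 4 was above every other library. Acinar pancreas markers, which code for digestive enzymes, summed to 509, 865, 57358, 891 and 381 CPM in the controls and 13271, 4889.6, 648, 354 and 6743 CPM in the LPS fish. Control replicate 4 was again the highest, and LPS replicates 1, 2 and 8 lay above the other 4 controls. In control replicate 4, 22887 genes had a count, against 20359 to 21086 in the other 9 libraries, and its Spearman correlation with them was 0.846 to 0.874, where the other 9 correlated with each other at 0.920 to 0.969. Results are therefore given with and without control replicate 4.

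**Figure D1:**
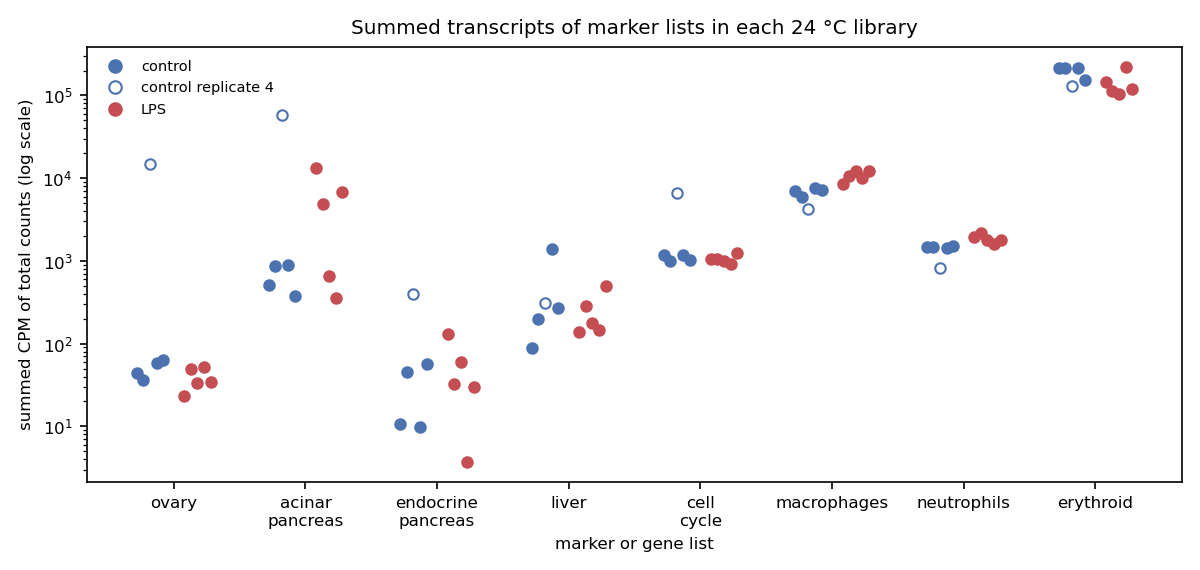
Summed CPM of total counts (vertical axis, log scale) of 8 marker or gene lists (horizontal axis) in each 24 °C library; each circle is 1 library, blue for control, red for LPS and open for control replicate 4. The open circle is at 14884 CPM for ovary markers, where the other 9 libraries lie between 23.0 and 63.5 CPM, while for macrophage markers all 5 LPS libraries lie above all 5 controls.

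Of 17841 genes tested, 3 were higher with LPS at an adjusted p under 0.05 (0.0168% of the genes) and 0 were lower (0%). Without control replicate 4, 2 of 18067 genes passed (0.0111%), both higher with LPS and both among the 3. At an unadjusted p under 0.05, where 446 genes in each direction are expected with no effect, 1007 genes were higher (5.64%) and 2005 lower (11.2%). Without control replicate 4 these were 1151 (6.37%) and 749 (4.15%). In 350 genes all 5 LPS libraries lay above all 5 controls (1.96%) and in 312 all lay below (1.75%). Without control replicate 4 these counts were 638 (3.53%) and 397 (2.2%). Smaller groups overlap less often, so a rise is due from leaving out any library and is no measure of the effect. Just past the threshold, 59 genes shared an adjusted p of 0.0539, and at an adjusted p under 0.10 there were 88 higher genes (0.493%) and 227 lower (1.27%). DESeq2 called 274 genes (1.54%), 110 higher and 164 lower, and 17 without control replicate 4 (0.0941%), 15 higher and 2 lower. It gave no adjusted p for some of the genes in these shares, which could thus not be called. Examples are zpax1, buc, CDC20 and DNMT1 with all libraries, and csf1rb and il6 without control replicate 4. Its counts are therefore not of the same genes as those of edgeR. Of the 17 genes that DESeq2 called without control replicate 4, 15 were among the 274. The count of 3 also moved with other single libraries: it was 0 without LPS replicate 4, and 292, 154, 286 and 283 without control replicates 2, 3, 5 and 8, most of these lower (244, 136, 232 and 247).

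The higher and the lower genes depended on control replicate 4 to a different extent. Among the 2005 lower genes, this library had the highest value of the 10 in 1319 (65.8%), against 26.0% of all genes tested. Lower genes are chosen for high control values, so part of this gap follows from the choice. Of the 2005, 631 (31.5%) kept an unadjusted p under 0.05 without control replicate 4, while 329 turned sign. Among the 1007 higher genes, 763 (75.8%) kept an unadjusted p under 0.05 without it and 0 turned sign. Of the 227 lower genes at an adjusted p under 0.10, control replicate 4 was the highest library in 217. In 42 of the 227, LPS and control libraries did not overlap, and 68 kept an unadjusted p under 0.05 without control replicate 4. Of the 88 higher genes at that threshold, 70 had LPS and control libraries that did not overlap, and all 88 kept an unadjusted p under 0.05 without control replicate 4. Genes of both directions were chosen for a small p in the same 10 libraries, so part of the missing overlap follows from the choice. The median log2 fold change of all tested genes was -0.12 with it and 0.04 without it, and 7262 of 17841 genes (40.7%) were above 0 with it and 9574 of 17838 without it. The medians and counts of gene groups are to be read against these values and the shares of all genes above. Where a pair of log2 fold changes is followed by an adjusted p, the first value and the p (edgeR's quasi-likelihood test) are of all 10 libraries and the second value is without control replicate 4.

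**Figure D2:**
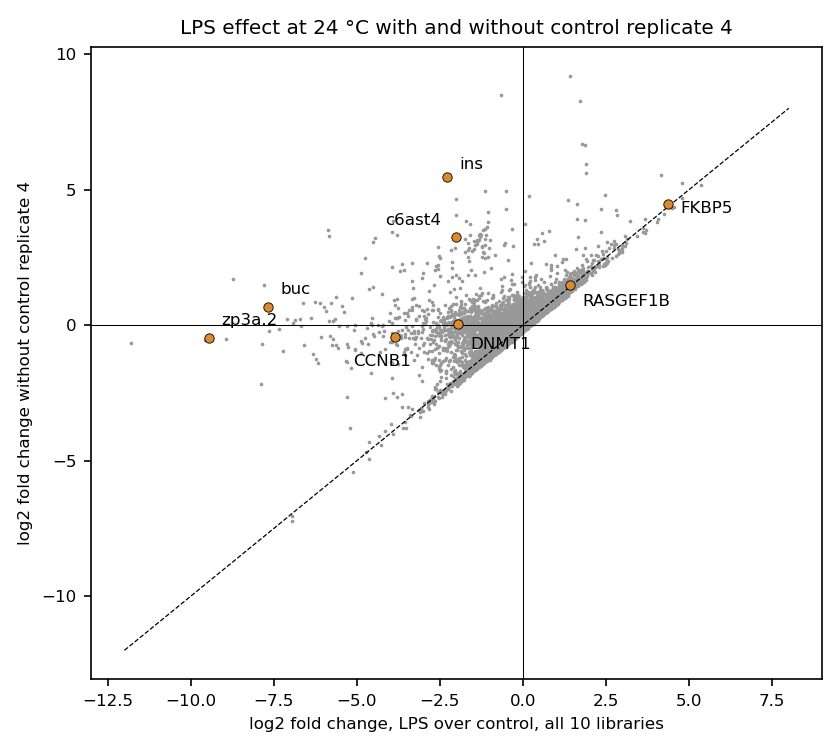
Log2 fold change of each tested gene, LPS over control at 24 °C, with all 10 libraries (horizontal axis) and without control replicate 4 (vertical axis); each grey point is 1 gene, orange points are named genes and the dashed line marks equal values. FKBP5 and RASGEF1B lie near the line, while the ovary genes zp3a.2 and buc move from -9.45 and -7.68 to -0.48 and 0.68.

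The 3 genes that rose with LPS were RASGEF1B, PER2 and TAGAP. RASGEF1B (ENSDARG00000033614), a Ras guanine nucleotide exchange factor whose transcript is induced by LPS in mouse macrophages, had 75.4, 55.1, 70.5, 86.2 and 76.6 CPM in the controls. In LPS fish, RASGEF1B had 141, 181, 214, 249 and 186 CPM. The lowest LPS library was well above the highest control. Its log2 fold change was 1.42 ± 0.22 (SE, adjusted p = 0.0149) and 1.47 ± 0.25 without control replicate 4 (adjusted p = 0.0366). PER2 (ENSDARG00000034503), a repressor of the circadian clock that light induces in zebrafish, had 18.9, 29, 24.4, 18.5 and 27.8 CPM in the controls and 41.7, 63.6, 57.5, 57.9 and 67.4 CPM in the LPS fish, again with no overlap. The change was 1.28 ± 0.22 (SE, adjusted p = 0.0257) and 1.36 ± 0.23 without control replicate 4 (adjusted p = 0.0366). TAGAP (ENSDARG00000043475), a GTPase-activating protein of activated lymphocytes, had 18.3, 18.6, 11.2, 20.6 and 15.9 CPM in the controls. In LPS fish, TAGAP had 34.5, 53.3, 54.7, 70.2 and 38.7 CPM. The groups did not overlap and control replicate 4 was the lowest of the 10. The change was 1.57 ± 0.28 (SE, adjusted p = 0.0257) and 1.52 ± 0.29 without control replicate 4 (adjusted p = 0.0868), so this call was lost without that library at nearly the same size. Leaving out each of the 10 libraries in turn, RASGEF1B and PER2 kept their calls in 9 of 10 fits and TAGAP in 8. All 3 calls were lost without LPS replicate 4, where their log2 fold changes were 1.31, 1.28 and 1.42 and their adjusted p 0.0673, 0.0673 and 0.0713. A fit of only the 10 libraries of 24 °C gave an adjusted p of 0.0336 for RASGEF1B, 0.0507 for PER2 and 0.0507 for TAGAP, and of 0.0336 for FKBP5.

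**Figure D3:**
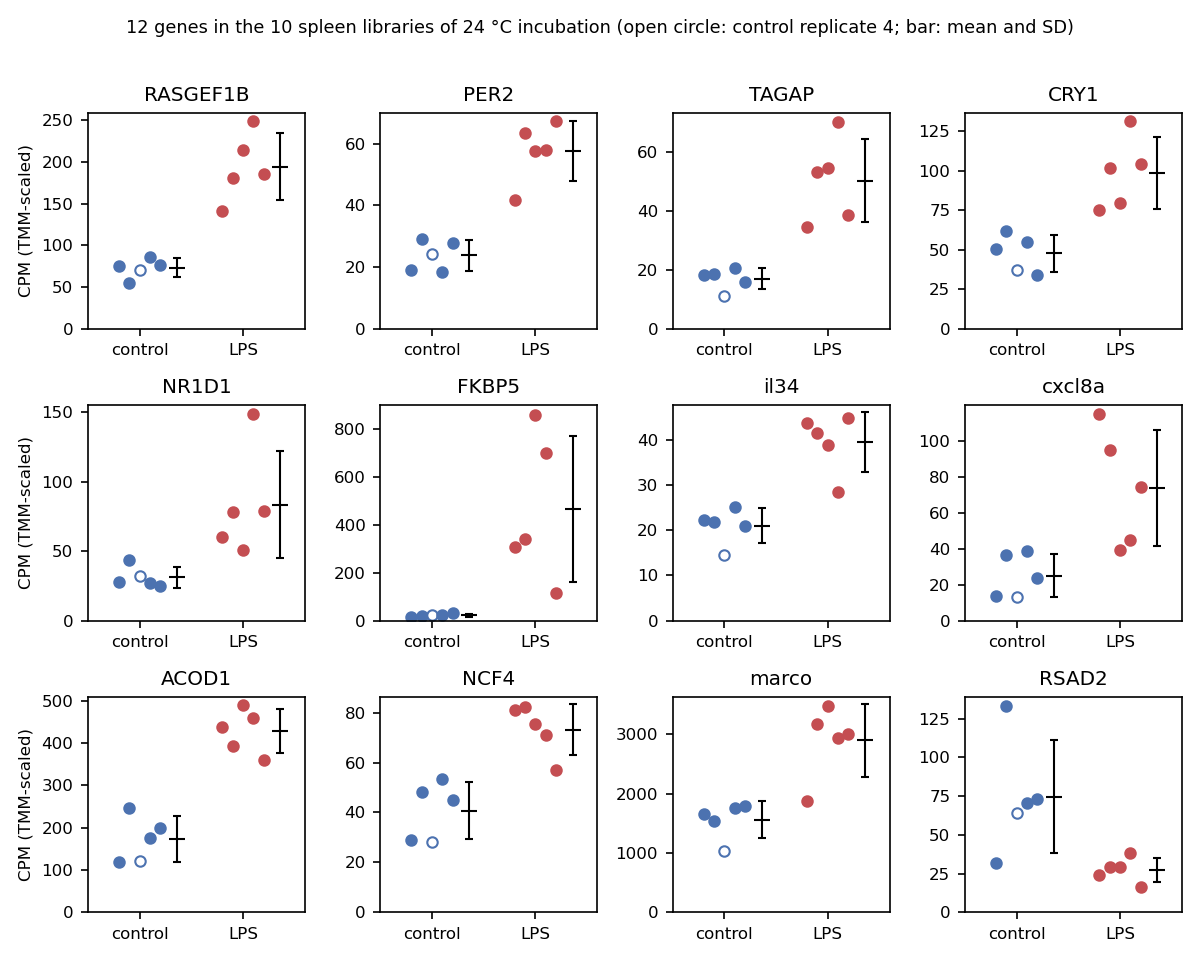
CPM (vertical axes, TMM-scaled) of 12 genes in the 5 control (blue) and 5 LPS (red) libraries of 24 °C; each circle is 1 library, the open circle is control replicate 4, and bars show the mean and SD of 5 libraries. The groups overlap only for RSAD2, where the lowest control, at 31.9 CPM, lies below the highest LPS library, at 38.1 CPM.

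Further genes were ranked by p among those with a mean of at least 5 CPM in 1 group and no clone or contig name. The 12 further genes with the smallest p and higher values in LPS fish all shared the adjusted p of 0.0539. In each of these genes the groups did not overlap. They included PIKFYVE (ENSDARG00000056112), a lipid kinase of endosomes, with 116, 135, 79.8, 167 and 136 CPM in the controls and 205, 308, 278, 201 and 286 CPM in the LPS fish. Its log2 fold change was 1.01 ± 0.21, and 0.96 without control replicate 4. ALCAM (ENSDARG00000026531), an adhesion molecule of leukocytes, had 35.5, 37.9, 39.3, 54.2 and 38.0 CPM in the controls. In LPS fish, ALCAM had 101, 164, 104, 89.2 and 75.7 CPM. Every LPS library was above the highest control, control replicate 5, which lay apart from the other 4, and the log2 fold change was 1.38 ± 0.31 (1.44 without control replicate 4). SLC30A1 (ENSDARG00000005463), a zinc exporter, had 136 ± 23.6 CPM with LPS against 63.0 ± 15.7 CPM in the controls (SD, n = 5 each; log2 fold change 1.11 ± 0.25). gpr174 (ENSDARG00000079826), a lysophosphatidylserine receptor of lymphocytes, had 23.5 ± 2.81 CPM with LPS against 11.4 ± 3.42 CPM in the controls (1.05 ± 0.23). ITPKC (ENSDARG00000067741), an inositol trisphosphate kinase, had 38.4 ± 5.24 CPM with LPS against 20.3 ± 3.09 CPM in the controls (0.92 ± 0.20). Without control replicate 4 these 3 were at 1.06, 1.03 and 0.97. The others were sowahd (ENSDARG00000087152) at 0.98 ± 0.19, tmem106a (ENSDARG00000045075) at 0.74 ± 0.16, lurap1 (ENSDARG00000115301) at 1.27 ± 0.29, the AP-1 subunit JUND (ENSDARG00000067850) at 0.90 ± 0.20, the transcription factor ets2 (ENSDARG00000103980) at 1.05 ± 0.24, the cytokine il34 and the clock gene CRY1. The first 5 of these were at 0.92, 0.79, 1.22, 0.89 and 1.01 without control replicate 4. With DESeq2 and without control replicate 4, sowahd (adjusted p = 0.0116), PIKFYVE (0.0292), il34 (0.0342), ITPKC (0.0342), ALCAM (0.0374), gpr174 and tmem106a (both 0.0491) passed the threshold.

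Cytokine transcripts had mostly higher values with LPS, though none passed the threshold over all genes. Of 36 tested cytokines, 29 had a log2 fold change above 0, 8 had an unadjusted p under 0.05 on the higher side and 1 on the lower (median 0.69, and without control replicate 4 median 0.70 with 7 higher and 0 lower). il34 (ENSDARG00000091003), a ligand of the macrophage growth factor receptor, had 22.4, 21.9, 14.6, 25.1 and 21 CPM in the controls and 43.8, 41.6, 38.8, 28.5 and 44.9 CPM in the LPS fish. All LPS libraries exceeded all controls, at 0.91 ± 0.19 (SE, adjusted p = 0.0539) and 0.88 ± 0.20 without control replicate 4 (adjusted p = 0.379). tnfb (ENSDARG00000013598), a tumour necrosis factor gene, had 12.2, 21.6, 9.05, 23.7 and 14.8 CPM in the controls. In LPS fish, tnfb had 43.3, 44.6, 31.7, 40.9 and 30.5 CPM, also without overlap, at 1.23 ± 0.37 (SE, adjusted p = 0.114) and 1.15 ± 0.40 without control replicate 4 (adjusted p = 0.422). Its relative tnfa (ENSDARG00000009511) had only 4.92 ± 1.55 CPM with LPS against 2.46 ± 1.29 CPM in the controls (1.00 and 0.93, adjusted p = 0.361). The other cytokine without overlap on the higher side was the granulocyte growth factor csf3a (ENSDARG00000102211), with 1.47 to 4.14 CPM in the controls and 5.65 to 13.5 CPM in the LPS fish (1.43 and 1.35, adjusted p = 0.375), and on the lower side it was ebi3 (ENSDARG00000053620), a cytokine subunit, with 1.6 to 4.5 CPM in the controls and 0.609 to 1.55 CPM in the LPS fish (-1.06 and -1.02, adjusted p = 0.299). This pair lies outside the naming rule and was chosen after its values were seen. The macrophage growth factor csf1b (ENSDARG00000068263) had 1.77, 1.08, 1.16, 2.54 and 0.988 CPM in the controls. In LPS fish, csf1b had 2.46, 10.2, 5.56, 1.72 and 14.5 CPM, so that LPS replicates 2, 3 and 8 were high and replicates 1 and 4 lay within or near the controls (2.19 and 2.18, adjusted p = 0.169). The inflammatory cytokine il1b (ENSDARG00000098700) had 15.0, 57.0, 16.3, 42.6 and 38.1 CPM in the controls. In LPS fish, il1b had 92.4, 54.2, 65.6, 37.8 and 57.0 CPM, with control replicates 2 and 4 lowest and the remaining controls overlapping the LPS fish (0.86 and 0.76, adjusted p = 0.445). il6 (ENSDARG00000102318) had 6.54 ± 3.78 CPM with LPS against 2.23 ± 1.1 CPM in the controls (1.55 and 1.57, adjusted p = 0.227) and the anti-inflammatory IL10 (ENSDARG00000078147) 3.59 ± 2.06 CPM with LPS against 1.71 ± 1.53 CPM in the controls (1.07 and 1.04, adjusted p = 0.416). tnfsf13b (ENSDARG00000012945), the B cell survival factor BAFF, had 52.7 ± 13.8 CPM with LPS against 25.1 ± 15.2 CPM in the controls (1.07 and 1.15, adjusted p = 0.177).

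Of 39 chemokines, 33 had a log2 fold change above 0 and 10 an unadjusted p under 0.05, all on the higher side (median 0.61, and without control replicate 4 median 0.63 with 9 higher and 0 lower). cxcl8a (ENSDARG00000104795), which attracts neutrophils, had 13.6, 36.3, 13, 38.4 and 23.4 CPM in the controls and 115, 95.0, 39.0, 44.9 and 74.4 CPM in the LPS fish. It was the 1 chemokine without overlap, although LPS replicate 3 exceeded control replicate 5 by little, and its log2 fold change was 1.56 ± 0.50 (SE, adjusted p = 0.125) and 1.48 ± 0.54 without control replicate 4 (adjusted p = 0.424). ccl19a.1 (ENSDARG00000058389), a relative of the lymphocyte and dendritic cell chemokine CCL19, had 28.1, 158, 43.6, 50.8 and 130.3 CPM in the controls. In LPS fish, ccl19a.1 had 908, 192, 2237, 12.4 and 177 CPM. LPS replicates 1 and 3 were above all other libraries and LPS replicate 4 below all controls, and the log2 fold change was 3.10 ± 1.14, 3.02 without control replicate 4 (adjusted p = 0.175 with all 10). cxcl18a.1 (ENSDARG00000111840) (1.35 and 1.3, adjusted p = 0.0912), ccl20a.3 (ENSDARG00000101040) (1.72 and 1.55, adjusted p = 0.184) and cxcl18b (ENSDARG00000075045) (0.70 and 0.63, adjusted p = 0.369) overlapped between the groups. Of 44 receptors of cytokines and chemokines, 6 had an unadjusted p under 0.05 on the higher side and 2 on the lower (median 0.19, and without control replicate 4 median 0.13 with 7 higher and 1 lower). csf1rb (ENSDARG00000053624), a receptor of the macrophage growth factors including il34, had 9.74, 5.73, 3.84, 8.68 and 3.54 CPM in the controls. In LPS fish, csf1rb had 1.02, 2.24, 0.893, 1.84 and 1.28 CPM. It was lower in every LPS fish, at -2.11 ± 0.56 (SE, adjusted p = 0.0812) and -2.17 ± 0.58 without control replicate 4 (adjusted p = 0.419). The receptor chain il10ra (ENSDARG00000100383) (0.74 and 0.78, adjusted p = 0.0878) and the TNF receptor relative tnfrsf11a (ENSDARG00000087804) (0.72 and 0.67, adjusted p = 0.137) had higher values, and the lymphocyte receptor il7r (ENSDARG00000078970) a lower one (-0.79 and -0.72, adjusted p = 0.256).

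Sensors of microbial products showed no common direction. Among 30 tested members, 16 were above 0, 3 had an unadjusted p under 0.05 on the higher side and 2 on the lower (median 0.06, and without control replicate 4 median 0.02 with 2 higher and 2 lower). The flagellin receptor tlr5b (ENSDARG00000052322) had 72.6, 54.8, 34.6, 63.0 and 67.6 CPM in the controls. In LPS fish, tlr5b had 96.3, 93.5, 116, 100.4 and 103 CPM, without overlap (0.80 and 0.73, adjusted p = 0.114). The kinase IRAK4 (ENSDARG00000100534), which relays Toll-like receptor signals, had 20.9 ± 8.22 CPM with LPS against 11.4 ± 2.41 CPM in the controls (0.88 and 0.90, adjusted p = 0.143), and the adaptor ticam1 (ENSDARG00000102493), outside the naming rule, was the other member without overlap (0.40 and 0.38, adjusted p = 0.231). The nucleic acid receptors tlr3 (ENSDARG00000016065) (-0.96 and -0.99, adjusted p = 0.226) and tlr21 (ENSDARG00000058045) (-1.27 and -1.35, adjusted p = 0.217) had lower values. The NF-kB inhibitor nfkbiab (ENSDARG00000007693) had 122, 157, 132, 159 and 189.6 CPM in the controls and 259.7, 275, 336, 425 and 197 CPM in the LPS fish, and its paralog nfkbiaa (ENSDARG00000005481) had 96.4, 147, 83.7, 161 and 180.5 CPM in the controls. In LPS fish, nfkbiaa had 317, 267, 285, 247 and 218 CPM. Neither overlapped between the groups. The log2 fold change of nfkbiab was 0.97 ± 0.25 (SE, adjusted p = 0.0749) and 0.99 ± 0.27 without control replicate 4 (adjusted p = 0.419). That of nfkbiaa was 1.00 ± 0.33 (SE, adjusted p = 0.132) and 0.94 ± 0.35 without control replicate 4 (adjusted p = 0.424). NFKBIE (ENSDARG00000068367), a further inhibitor, had 67.3 ± 3.54 CPM with LPS against 46.5 ± 5.31 CPM in the controls (0.53 and 0.54, adjusted p = 0.115). The NF-kB list, which also holds TAGAP, had 6 of 28 members with an unadjusted p under 0.05 on the higher side, 1 on the lower and 4 without overlap, all higher, while 20 were above 0 (median 0.33, and without control replicate 4 median 0.30 with 5 higher and 0 lower).

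Of 42 immediate early transcription factors and kinase feedback genes, 28 were above 0, 12 had an unadjusted p under 0.05, all on the higher side, and 6 did not overlap (median 0.20, and without control replicate 4 median 0.22 with 12 higher and 0 lower). Those 6 were RASGEF1B, a second gene of the same symbol (ENSDARG00000044251; 1.12 and 1.19, adjusted p = 0.0716), JUND, ets2 and, outside the naming rule, JUN (ENSDARG00000043531) (0.48 and 0.49, adjusted p = 0.159) and the kinase inhibitor SPRED1 (ENSDARG00000041449) (0.70 and 0.66, adjusted p = 0.103). Of 14 inflammatory enzymes and feedback genes, 9 were above 0 and 3 had an unadjusted p under 0.05, all higher, which were ACOD1, CEBPB and CEBPD (median 0.34, and without control replicate 4 median 0.30 with 3 higher and 0 lower). ACOD1 (ENSDARG00000069844), which makes the antimicrobial metabolite itaconate in macrophages, had 118, 246, 122, 176 and 199.9 CPM in the controls. In LPS fish, ACOD1 had 437, 392, 489.6, 459 and 360.3 CPM. The lowest LPS fish was above the highest control, at 1.31 ± 0.43 (SE, adjusted p = 0.130) and 1.28 ± 0.48 without control replicate 4 (adjusted p = 0.424). CEBPB (ENSDARG00000042725) (0.96 and 0.90, adjusted p = 0.178), CEBPD (ENSDARG00000087303) (1.19 and 1.13, adjusted p = 0.0850) and CEBPA (ENSDARG00000036074) (1.28 and 1.27, adjusted p = 0.103), transcription factors of myeloid cells, did not overlap between the groups either. All 6 genes of the phagocyte NADPH oxidase, the complex that makes superoxide, had values above 0, 5 with an unadjusted p under 0.05 (median 0.82, and without control replicate 4 median 0.76 with 3 higher and 0 lower). The regulatory subunit NCF4 (ENSDARG00000040812) had 29.2, 48.2, 28.0, 53.2 and 45 CPM in the controls. In LPS fish, NCF4 had 80.8, 82.2, 75.3, 70.9 and 56.8 CPM. Its groups did not overlap, at 0.85 ± 0.22 (SE, adjusted p = 0.0771) and 0.81 ± 0.23 without control replicate 4 (adjusted p = 0.420), nor did those of the membrane subunit cyba (ENSDARG00000018283) (0.87 and 0.81, adjusted p = 0.115) and NCF1 (ENSDARG00000033735) (0.89 and 0.79, adjusted p = 0.252). Of the 6 members, 4 did not overlap, all higher. The subunit gene rac2 (ENSDARG00000038010), outside the naming rule, was at 0.47 and 0.41, adjusted p = 0.281.

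Macrophage markers had higher summed values in LPS fish. Their sum in CPM of total counts was 6927, 5939, 4232, 7559 and 7100.4 in the controls and 8504, 10725, 12359.7, 10099 and 12141 in the LPS fish, with no overlap and control replicate 4 lowest. Abundant members weigh most in such a sum. Sums of some other lists did not overlap either, such as sensors of microbial products (at most 435 in controls, at least 459 in LPS fish). Those of B and plasma cells did overlap (at most 853 and at least 835). Of 34 macrophage markers, 25 were above 0, and 21 without control replicate 4. On the higher side 7 had an unadjusted p under 0.05, and 2 on the lower (median 0.44, and without control replicate 4 median 0.41 with 7 higher and 1 lower). The receptor csf1rb, also a member of this list, went the other way. It was the 1 marker with all LPS libraries below all controls (-2.11 and -2.17, adjusted p = 0.0812). marco (ENSDARG00000059294), a scavenger receptor of macrophages, had 1660.2, 1548, 1029, 1767 and 1793 CPM in the controls and 1878, 3178, 3485, 2940.2 and 3003 CPM in the LPS fish. LPS replicate 1 lay just above the controls and the others well above, at 0.89 ± 0.24 (SE, adjusted p = 0.0833) and 0.84 ± 0.26 without control replicate 4 (adjusted p = 0.420). The lysosomal protease LGMN (ENSDARG00000039150) had 1500.3 ± 181 CPM with LPS against 728 ± 276 CPM in the controls (1.04 and 0.97, adjusted p = 0.115) without overlap. The other markers without overlap on the higher side, named after their values were seen, were CTSC (ENSDARG00000101334) (0.68 and 0.72, adjusted p = 0.137), cd68 (ENSDARG00000055504) (0.55 and 0.54, adjusted p = 0.165), MPEG1 (ENSDARG00000043093) (1.00 and 0.98, adjusted p = 0.184), CMKLR1 (ENSDARG00000090890) (0.89 and 0.82, adjusted p = 0.116) and timd4 (ENSDARG00000077257), at under 3 CPM in every library (1.12 and 1.16, adjusted p = 0.385). The part that this marker sum has in the values of inflammatory genes was not tested. Neutrophil markers summed to 823 to 1535 CPM in the controls (1440.2 to 1535 without replicate 4) and 1609 to 2189 in the LPS fish, also without overlap. By gene the list was mixed: 13 of 21 had a log2 fold change above 0, and 12 without control replicate 4. An unadjusted p under 0.05 was found for 4, all higher (median 0.26, and without control replicate 4 median 0.18 with 4 higher and 0 lower). These were CEBPA, the granule proteoglycan srgn (ENSDARG00000077069) (0.74 and 0.67, adjusted p = 0.103), adam8a (ENSDARG00000001452) (0.81 and 0.84, adjusted p = 0.181) and illr4 (ENSDARG00000008075) (1.38 and 1.27, adjusted p = 0.22). The granule enzymes lyz (ENSDARG00000057789) (1.53 and 1.63, adjusted p = 0.356) and MMP9 (ENSDARG00000042816) (0.31 and 0.28, adjusted p = 0.742) overlapped, and lyz was at 22.7 CPM in LPS replicate 2 and at most 4.1 CPM in the other 9 libraries.

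The circadian clock list was split. Of 38 clock genes, 7 did not overlap between the groups, all higher with LPS, and the same 7 had an unadjusted p under 0.05, while 2 had one on the lower side and 15 were above 0 (median -0.08, and without control replicate 4 median -0.03 with 8 higher and 1 lower). These 7 were PER2, CRY1, PER1, NR1D1, BHLHE40 and, outside the naming rule, nr1d2a and BHLHE41, all of which code for repressors of clock transcription. CRY1 (ENSDARG00000045768) had 50.5, 62.0, 37.1, 55.0 and 34.1 CPM in the controls. In LPS fish, CRY1 had 74.8, 102, 79.5, 132 and 104 CPM, at 1.04 ± 0.24 (SE, adjusted p = 0.0539) and 1.04 ± 0.23 without control replicate 4 (adjusted p = 0.375). NR1D1 (ENSDARG00000033160), a nuclear receptor that represses the clock, had 27.6, 43.3, 31.9, 27.2 and 25.1 CPM in the controls and 59.9, 78.3, 50.5, 149 and 78.5 CPM in the LPS fish. LPS replicate 4 was the highest by far and the other 4 LPS fish were still above every control, at 1.42 ± 0.38 (SE, adjusted p = 0.0826) and 1.5 ± 0.40 without control replicate 4 (adjusted p = 0.419). nr1d2a (ENSDARG00000003820) had 30.1, 63.8, 43.4, 41.3 and 29.1 CPM in the controls. In LPS fish, nr1d2a had 139.8, 132, 195, 386 and 147 CPM, the widest gap of the 7 (2.27 and 2.35, adjusted p = 0.106). PER1 (ENSDARG00000056885) had 38.8 ± 8.23 CPM with LPS against 18.4 ± 4.19 CPM in the controls (1.08 and 1.09, adjusted p = 0.115), BHLHE40 (ENSDARG00000004060) 108 ± 6.82 CPM with LPS against 70.2 ± 14.3 CPM in the controls (0.63 and 0.62, adjusted p = 0.0805) and BHLHE41 (ENSDARG00000041691) 27.3 ± 7.05 CPM with LPS against 15.6 ± 3.21 CPM in the controls (0.80 and 0.87, adjusted p = 0.162). Other genes of the same symbols had values near 0: PER1 (ENSDARG00000012499) had a log2 fold change of -0.05 ± 0.23 and CRY1 (ENSDARG00000011583) of -0.12 ± 0.27. Of 14 genes of light-induced DNA repair, 4 were above 0 with control replicate 4 and 12 without it, and 0 had an unadjusted p under 0.05 on the higher side and 2 on the lower (median -0.27, and without control replicate 4 median 0.27 with 1 higher and 0 lower), so that their direction turned with that library.

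Among genes that glucocorticoid hormones induce, FKBP5 differed most. FKBP5 (ENSDARG00000028396), a co-chaperone that restrains the glucocorticoid receptor, had 13.7, 21, 24.2, 23.1 and 30.2 CPM in the controls and 307, 341, 858, 701 and 116 CPM in the LPS fish. The lowest LPS fish, replicate 8, was still well above the highest control, and the LPS fish varied widely among themselves. Its log2 fold change was 4.37 ± 1.06 (SE, adjusted p = 0.0661) and 4.46 ± 1.18 without control replicate 4 (adjusted p = 0.419), and DESeq2 without control replicate 4 gave an adjusted p of 0.0112. KLF9 (ENSDARG00000068194), a transcription factor induced by these hormones and outside the naming rule, had 4.08, 14.6, 8.41, 6.99 and 8.58 CPM in the controls. In LPS fish, KLF9 had 40.1, 28.9, 80.2, 60.9 and 15.2 CPM, so that the same LPS fish, replicates 3 and 4, were highest and replicate 8 lowest (2.40 and 2.47, adjusted p = 0.163). tsc22d3 (ENSDARG00000075666), known as GILZ, had 108, 131, 80.1, 183 and 174 CPM in the controls. In LPS fish, tsc22d3 had 215, 345, 337, 385 and 154 CPM. LPS replicate 8 lay within the controls, at 1.08 ± 0.29 (SE, adjusted p = 0.0830) and 1.01 ± 0.31 without control replicate 4 (adjusted p = 0.420). sgk1 (ENSDARG00000025522), a kinase, had 112 ± 11.6 CPM with LPS against 64.3 ± 8.21 CPM in the controls without overlap (0.81 and 0.85, adjusted p = 0.0539). Of the 20 tested genes of this list, which also holds CEBPD and nfkbiaa, 6 had an unadjusted p under 0.05, all higher, and 5 did not overlap (median 0.37, and without control replicate 4 median 0.66 with 7 higher and 1 lower).

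Interferon-induced genes were mostly below 0, with few differences in single genes. Of 45 tested, 33 were below 0 with and without control replicate 4, 6 had an unadjusted p under 0.05 on the lower side and 1 on the higher, with a median -0.27, and without control replicate 4 median -0.25 with 1 higher and 5 lower. The count with all 10 libraries is near the share of all genes that was lower (11.2%), and none was called. Without control replicate 4 the 5 lower of 45 stand against a smaller share of all genes, 4.15%. RSAD2 (ENSDARG00000004952), the antiviral protein viperin, had 31.9, 133, 64.1, 70.9 and 73.4 CPM in the controls and 24.0, 29.2, 29.2, 38.1 and 16.5 CPM in the LPS fish. Control replicate 3 was the highest and control replicate 2 lay among the LPS fish, at -1.45 ± 0.51 (SE, adjusted p = 0.159) and -1.43 ± 0.53 without control replicate 4 (adjusted p = 0.424). IRF7 (ENSDARG00000045661), a transcription factor of the interferon response, had 39.9, 175, 63.7, 80.7 and 68.2 CPM in the controls. In LPS fish, IRF7 had 55.8, 40.7, 60.5, 44.9 and 33.8 CPM, with control replicate 3 again highest (-0.86 and -0.87, adjusted p = 0.198). The RNA-editing enzyme adar (ENSDARG00000012389) had 84.8, 111, 65.9, 63.1 and 59.5 CPM in the controls. In LPS fish, adar had 42.2, 47.5, 51.8, 59.4 and 38.5 CPM, and LPS replicate 4 was only just below the lowest control (-0.69 and -0.66, adjusted p = 0.203). mxe (ENSDARG00000014427), outside the naming rule, was the other member without overlap on the lower side (-0.90 and -0.82, adjusted p = 0.472), and tmem106a the 1 on the higher. Of 48 T and NK cell markers, 1 had an unadjusted p under 0.05 on the higher side and 3 on the lower (median -0.16, and without control replicate 4 median -0.13 with 1 higher and 1 lower). The first was prf1.5 (ENSDARG00000037598), a perforin, which was at 22.8 CPM in LPS replicate 3 and at most 2.22 CPM in the others, and the lower ones included the helper T cell receptor cd4-1 (ENSDARG00000070668) (-0.88 and -0.92, adjusted p = 0.204). Of 21 B and plasma cell markers, 2 were on the higher side, among them cd22 (ENSDARG00000053005) with 5.94, 11.2, 6.36, 11.2 and 12.3 CPM in the controls and 35.5, 23.0, 18.8, 12.5 and 17.2 CPM in the LPS fish (1.19 and 1.15, adjusted p = 0.109), and 1 on the lower (median 0.18, and without control replicate 4 median 0.20 with 1 higher and 1 lower). LPS replicate 4 exceeded the highest control for cd22 only narrowly. The B cell receptor component cd79a (ENSDARG00000037473) did not separate the groups (-0.12 and -0.16, adjusted p = 0.912). Of 24 antigen presentation genes, 0 were on the higher side and 2 on the lower (median 0.10, and without control replicate 4 median 0.15 with 0 higher and 1 lower). The class II chaperone cd74a (ENSDARG00000009087) had 306 ± 120.3 CPM with LPS against 490.4 ± 255 CPM in the controls (-0.68 and -0.77, adjusted p = 0.338), while the class I light chain b2m (ENSDARG00000053136) was at 0.41 and 0.33, adjusted p = 0.306.

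Erythroid transcripts had lower values in 4 of the 5 LPS fish than in 4 of the 5 controls. Their summed CPM was 217512, 216783, 130285, 212172 and 151913 in the controls and 144084, 112228, 104357, 222233 and 119891 in the LPS fish. LPS replicate 4 was the highest of all 10 libraries, and the other 4 LPS libraries lay below all controls but replicate 4. Of 45 tested members, 44 had a log2 fold change below 0, 9 had an unadjusted p under 0.05 on the lower side and 0 on the higher, and 0 were without overlap (median -0.61, and without control replicate 4 median -0.66 with 0 higher and 10 lower). The membrane protein RHAG (ENSDARG00000019253) had 911, 1299, 558, 822 and 1621 CPM in the controls. In LPS fish, RHAG had 598, 461, 499, 683 and 496 CPM, at -0.93 ± 0.35 (SE, adjusted p = 0.181) and -1.02 ± 0.34 without control replicate 4 (adjusted p = 0.422). gata1a (ENSDARG00000013477), the master transcription factor of red cells, had 110.03, 282, 84.8, 159.6 and 201 CPM in the controls. In LPS fish, gata1a had 81.7, 81.6, 91.4, 133 and 78.9 CPM, with control replicate 3 highest (-0.84 and -0.94, adjusted p = 0.22). The alpha globin hbaa1 (ENSDARG00000097011) had 36672 ± 18386 CPM with LPS against 59160.2 ± 16544 CPM in the controls (-0.69 and -0.71, adjusted p = 0.387), where its near-identical copies make the value uncertain, and alas2 (ENSDARG00000038643), the first enzyme of haem synthesis in red cells, had 5076 ± 1033 CPM with LPS against 7457 ± 2663 CPM in the controls (-0.55 and -0.64, adjusted p = 0.395). NFE2 (ENSDARG00000020606), a transcription factor shared by red cells and thrombocytes, was at -0.61 and -0.70, adjusted p = 0.260. A scaling computed without the erythroid, acinar pancreas and ovary lists and the 50 most abundant genes also gave 3 called genes. The part of the red cell share in the values of single genes was not tested.

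Genes of protein synthesis and energy supply showed small differences, mostly of the same sign. Of 81 ribosomal protein genes, 79 had a log2 fold change above 0 (median 0.23), with 3 at an unadjusted p under 0.05, among them RPS9 (ENSDARG00000011405) (0.40 and 0.44, adjusted p = 0.192). Nuclear genes of oxidative phosphorylation (82 of 94 above 0, median 0.25, 8 on the higher side at an unadjusted p under 0.05), proteasome genes (42 of 45, median 0.26, 7) and mitochondrially encoded genes (13 of 13, median 0.28, 0) did likewise, with UQCRH (ENSDARG00000059128), a subunit of respiratory complex III, at 0.57 and 0.61, adjusted p = 0.135. Without control replicate 4 the 4 medians were 0.27, 0.27, 0.29 and 0.27. The numbers at an unadjusted p under 0.05 were then 4, 9, 4 and 0. With all 10 libraries, LPS and control libraries did not overlap in 0 ribosomal, 1 oxidative phosphorylation, 0 proteasome and 0 mitochondrially encoded genes. Members of such a group share their scaling and are not independent. In the unfolded protein response, 5 of 36 members did not overlap, all higher, and 5 had an unadjusted p under 0.05 on the higher side and 1 on the lower (median 0.18, and without control replicate 4 median 0.29 with 7 higher and 1 lower). Without overlap were atf4a (ENSDARG00000111939) (0.48 and 0.57, adjusted p = 0.125), a stress transcription factor, the protein folding factors PDIA3 (ENSDARG00000102640) (0.63 and 0.65, adjusted p = 0.161) and SDF2L1 (ENSDARG00000035631) (0.87 and 0.95, adjusted p = 0.197), and, outside the naming rule, DNAJB11 (ENSDARG00000015088) (0.61 and 0.72, adjusted p = 0.332) and DERL1 (ENSDARG00000021905) (0.17 and 0.23, adjusted p = 0.60). The chaperone CALR (ENSDARG00000076290) overlapped (0.65 and 0.68, adjusted p = 0.231).

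The lists of ovary, pancreas and cell cycle genes moved most when control replicate 4 was left out. All 11 tested ovary markers had an unadjusted p under 0.05 on the lower side with a median of -5.06, and without control replicate 4 the median was -0.45 with 0 such members. The egg coat gene zp3a.2 (ENSDARG00000042130) had 941 CPM in control replicate 4 and at most 0.713 CPM in the other 9 libraries, and its log2 fold change went from -9.45 to -0.48. The oocyte gene buc (ENSDARG00000096095) had 581 CPM there and at most 0.820 CPM elsewhere, and ZAR1 (ENSDARG00000019706), zpax1 (ENSDARG00000069251) and retsatl (ENSDARG00000034989) had 403, 1701 and 1122 CPM in it. Beyond these genes, zp3e (ENSDARG00000016908), tuba4l (ENSDARG00000074289), NEK2 (ENSDARG00000005619) and CITED2 (ENSDARG00000030905) were among the 10 lower genes with the smallest p, and their log2 fold changes went from -7.86, -6.33, -4.0 and -3.75 to -0.70, -1.05, -0.63 and -1.45. Of 54 cell cycle genes, 33 had an unadjusted p under 0.05 on the lower side with control replicate 4 (median -1.26) and 3 without it (median -0.15). CDC20 (ENSDARG00000100741), an activator of mitotic exit, had 9.56, 10.6, 199.96, 13.3 and 7.85 CPM in the controls. In LPS fish, CDC20 had 4.69, 5.52, 6.33, 4.75 and 5.92 CPM. Here the LPS fish lay below the other 4 controls too, at -3.15 ± 0.65 (SE, adjusted p = 0.0539) and -0.85 ± 0.29 without control replicate 4 (adjusted p = 0.422). The centriole gene stil (ENSDARG00000024904) had similar values (-2.52, -0.78 without control replicate 4), while the cyclin CCNB1 (ENSDARG00000051923) went from -3.86 to -0.43 and the replication licensing factor CDT1 (ENSDARG00000051854) from -2.42 to -0.86. The maintenance DNA methyltransferase DNMT1 (ENSDARG00000030756) had 49.4, 43.2, 553, 28.2 and 28.3 CPM in the controls and 34, 33.0, 38.4, 36.5 and 38.5 CPM in the LPS fish. With 553 CPM in control replicate 4 its log2 fold change was -1.96, and without it 0.03. The acinar pancreas list changed sign, from a median of -1.30 to 2.93, with LPS replicates 1, 2 and 8 then holding the highest values. Of its 28 tested members, 0 had an unadjusted p under 0.05 on the higher side and 1 on the lower. Without control replicate 4 these were 7 and 0. For the 11 endocrine pancreas genes the counts were 0 and 1, and then 4 and 0. The higher genes counted without control replicate 4 thus include pancreas genes. The digestive enzyme gene c6ast4 (ENSDARG00000052578) had 9.56, 11, 1651, 11.6 and 5.67 CPM in the controls. In LPS fish, c6ast4 had 236, 60.2, 9.90, 8.38 and 104 CPM, and ins (ENSDARG00000035350), the insulin gene, had 0.0906, 0.302, 160.4, 0.106 and 0.104 CPM in the controls and 19, 13.8, 0.0812, 0 and 0.107 CPM in the LPS fish. Liver markers, in contrast, had a low median with and without that library. Of 43 tested, 9 were above 0 in both cases, and 1 had an unadjusted p under 0.05 on the higher side and 0 on the lower (median -1.45, and without control replicate 4 median -1.40 with 0 higher and 0 lower). Their sum was highest in control replicate 5, at 1381 CPM of total counts, against 89.2 to 503 in the other 9 libraries, and its part in the list's median was not tested.

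**Figure D4:**
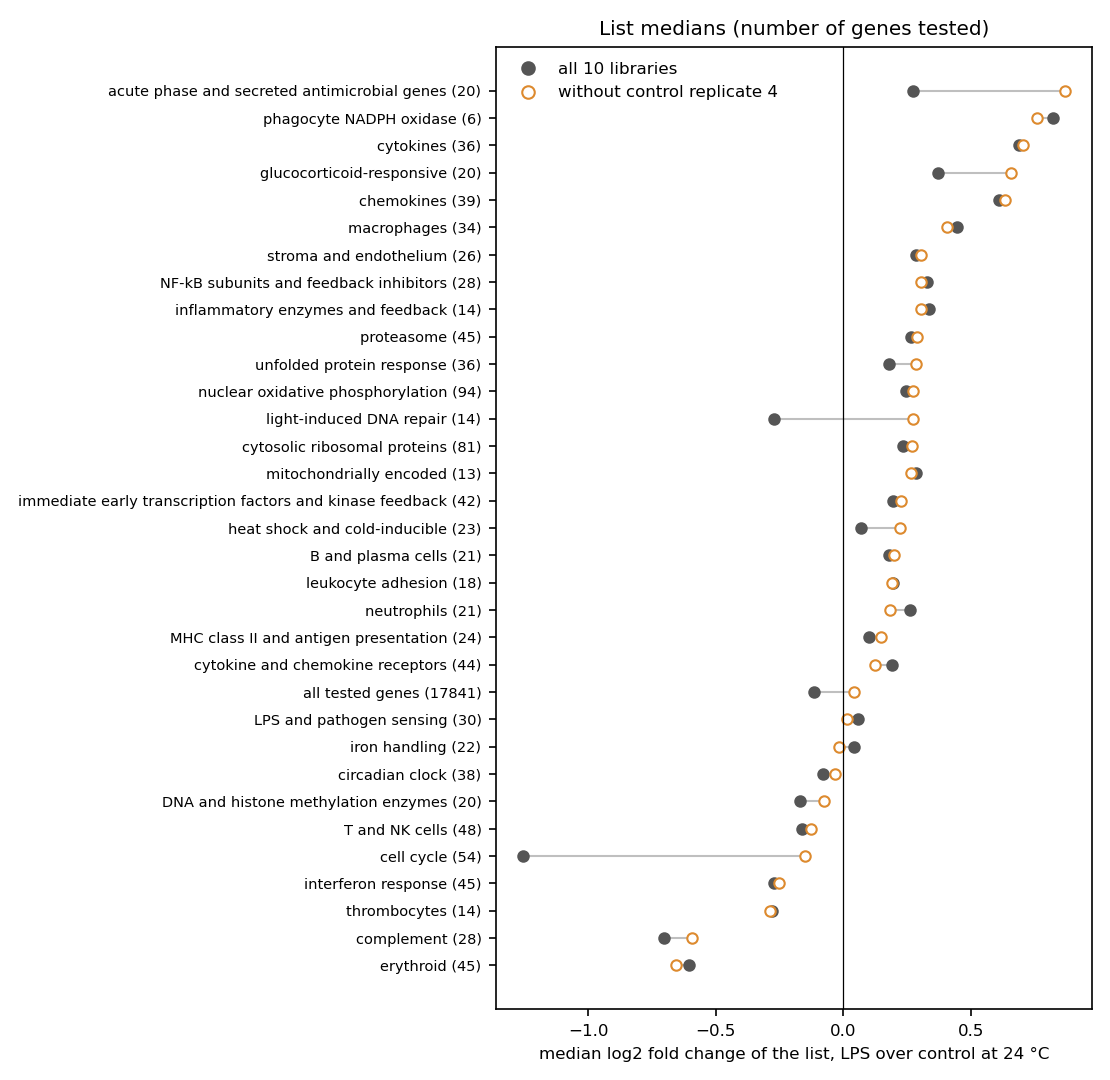
Median log2 fold change, LPS over control at 24 °C (horizontal axis), of 32 gene lists and of all tested genes, with the number of genes tested in brackets; filled circles use all 10 libraries and open circles leave out control replicate 4. Cytokines (0.69 and 0.70), macrophages (0.44 and 0.41) and erythroid genes (-0.61 and -0.66) move little, while cell cycle genes go from -1.26 to -0.15; the ovary, pancreas and liver lists are not drawn.

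The LPS effect at 24 °C was set against that in fish incubated at 28 and 32 °C, in the same fit of 30 libraries. Over all genes, 134 differed between 24 and 28 °C (0.751%), 104 with a higher LPS effect at 24 °C and 30 with a lower one. Without 24 °C control replicate 4, 35 differed. Between 24 and 32 °C, 4 differed (0.0224%), and 5 without it. The genes described here were chosen by their 24 °C values, which enter these differences. Of the 15 higher genes with the smallest p, 10 differed between 24 and 28 °C and 2 between 24 and 32 °C, and 8 and 2 did so without 24 °C control replicate 4. Among the 109 genes named by the rule, 27 differed between 24 and 28 °C, 22 with a higher LPS effect at 24 °C and 5 with a lower one. That split is close to the one over all genes. Without 24 °C control replicate 4, 10 of the 109 differed. At 28 °C the log2 fold change itself was below 0 in 13 of the 15 and in 68 of the 109. At 32 °C it was below 0 in 10 and 61. The share of all genes below 0 was not counted here, and their median was 0.02 at 28 °C and -0.02 at 32 °C. RASGEF1B differed by 2.44 ± 0.32 (SE, adjusted p = 0.000387) from 28 °C and 2.25 ± 0.32 (SE, adjusted p = 0.00169) from 32 °C, TAGAP by 1.81 ± 0.38 (SE, adjusted p = 0.0316) and 2.47 ± 0.39 (SE, adjusted p = 0.00606), and PER1 by 2.95 ± 0.47 (SE, adjusted p = 0.00606) from 32 °C. The inflammatory genes cxcl8a at 3.27 ± 0.71 (SE, adjusted p = 0.0343), ACOD1 at 2.68 ± 0.6 (SE, adjusted p = 0.0374) and tnfb at 2.48 ± 0.53 (SE, adjusted p = 0.0325) differed from 28 °C. These differences include log2 fold changes below 0 at 28 °C, of -1.71, -1.37 and -1.25. Without 24 °C control replicate 4 the differences were nearly as large, at 3.24, 2.68 and 2.45, and did not pass (adjusted p = 0.0547, 0.0628 and 0.0547). In the opposite direction, RSAD2 differed by -3.26 ± 0.73 (SE, adjusted p = 0.0374) and csf1rb by -3.23 ± 0.78 (SE, adjusted p = 0.0468) from 28 °C (without that library -3.20 and -3.22, adjusted p = 0.0594 and 0.0628). The other named genes with a lower LPS effect at 24 than at 28 °C were tuba4l, zp3e and CDC20. Without that library their adjusted p were 0.389, 0.524 and 0.105. PER2 did not pass, with a difference of -0.06 ± 0.31 (SE, adjusted p = 0.933) from 28 °C and -0.27 ± 0.31 (SE, adjusted p = 0.802) from 32 °C. Neither did CRY1, with -0.18 ± 0.33 (SE, adjusted p = 0.790) and 0.45 ± 0.33 (SE, adjusted p = 0.652).

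For 69 of the 126 genes named, the 24 °C controls had the lowest mean level of the 6 groups, among them RASGEF1B, TAGAP, FKBP5, il34, tsc22d3, PER2 and CRY1. Most of the named genes were chosen by their 24 °C values, which include these control levels. The share over all tested genes was not counted, so the 69 cannot be read as a trait of the 24 °C controls. RASGEF1B had 72.8 ± 11.4 CPM in 24 °C controls, against 233 ± 25.8 in 28 °C controls and 213 ± 60.9 in 32 °C controls (SD, n = 5 each), and 194 ± 40.03 in 24 °C LPS fish. FKBP5 was at 13.7 to 30.2 CPM in the 24 °C controls and at 93.5 to 1041 in the 28 °C and 72.9 to 595 in the 32 °C controls, while the LPS fish ranged from 116 to 858 CPM at 24 °C, 10.9 to 1374 at 28 °C and 19.9 to 687 at 32 °C. All 24 °C controls thus lay below all controls of 28 and 32 °C, and the LPS groups overlapped those controls. tsc22d3 had 135 ± 43.7 CPM in 24 °C controls, 289 ± 63.3 in 28 °C and 294 ± 84.5 in 32 °C controls. il34 had 21 ± 3.90, 37.8 ± 3.44 and 30.4 ± 3.24 CPM in the same 3 groups. For PER2 the controls of the 3 temperatures lay within 1 SD of the 28 °C controls. They had 23.7 ± 4.89, 30.5 ± 9.81 and 28.2 ± 5.04 CPM, and its LPS fish 57.6 ± 9.78, 77.4 ± 20.8 and 82.3 ± 23.5. The differences between controls of different temperatures are given as values and were not tested here.

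**Figure D5:**
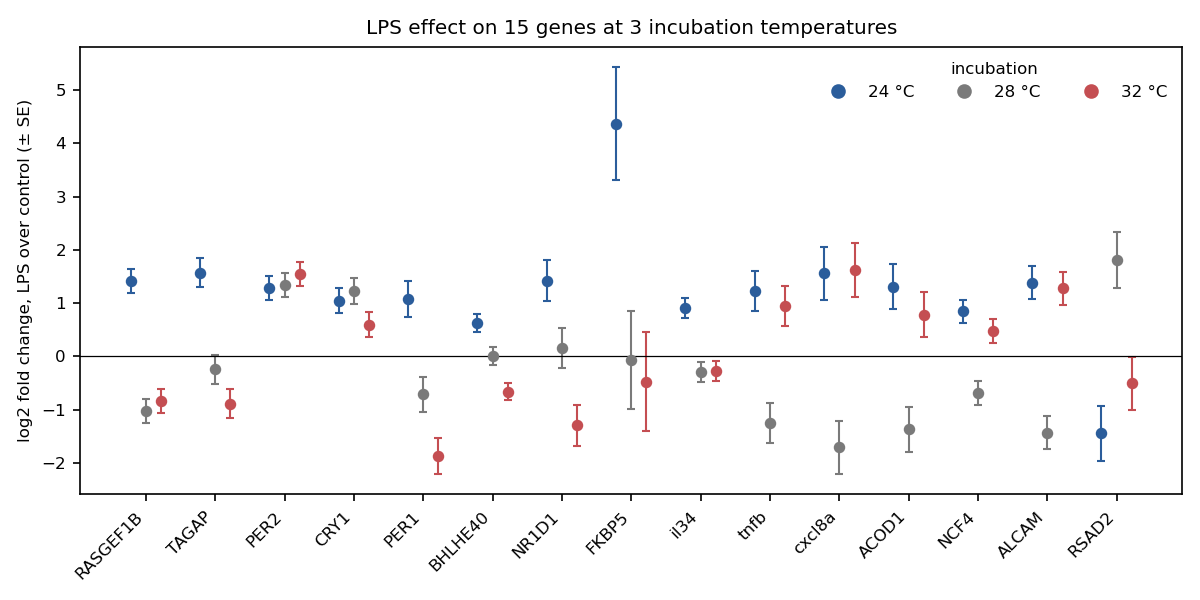
Log2 fold change of LPS over control (vertical axis, with SE bars) of 15 genes (horizontal axis) in fish incubated at 24 °C (blue), 28 °C (grey) and 32 °C (red), 5 LPS and 5 control libraries at each. PER2 lies between 1.28 and 1.55 at all 3 temperatures, whereas RASGEF1B is at 1.42 at 24 °C and at -1.02 and -0.83 at 28 and 32 °C.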

How the data were processed

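Polyadenylated spleen RNA was sequenced with a strand-specific kit, per the labels. The authors deposited 1 table of raw counts per Ensembl gene for 30 libraries (31901 genes). Per the submitters' processing notes, the genome build was GRCz11 and the tools included STAR, DESeq2 1.11.1, cutadapt 1.12, bcl2fastq and FastQC 0.11.5; how reads were counted, with which annotation and whether by strand, is not stated in the sources used here, which leaves values of near-identical copies and overlapping genes uncertain. Symbols came from a reference table, which paired 29178 of the 31901 IDs; 926 symbols are shared by several IDs.

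The counts were tested with edgeR 4.0.16 (R 4.3.3): genes were kept with filterByExpr, scaled by TMM and fitted with 1 term per group over all 30 libraries (6 groups of 5, 24 residual degrees of freedom, biological coefficient of variation 0.503) by the robust quasi-likelihood test with Benjamini-Hochberg adjustment; a gene was called at an adjusted p under 0.05. Standard errors were obtained as log2 fold change over the square root of the F statistic. DESeq2 1.42.0, limma 3.58.1 (voom), other filters and scalings, a replicate block and leaving out each library were alternatives. CPM of single genes use TMM-scaled library sizes, and marker sums use total counts. The scripts were checked on simulated counts. Totals of 16440020 to 22976284 counts per 24 °C library bound counting error only. No 2 libraries of a group were duplicates: over 10 pairs in each group the lowest chi-square per degree of freedom was 70.4 in controls and 31.7 in LPS fish.

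Named genes were the called genes, the 15 higher and 10 lower genes with the smallest p, up to 4 per gene list with a mean of at least 5 CPM in 1 group, and a fixed panel of inflammatory and tissue genes; 17 further genes were named after their values were seen. The 15 and the 10 were taken among genes with the same mean level whose symbol is not a clone or contig name. The members and gene lists were chosen with earlier results of these data known. No sequences are shown, and 1 named gene is not reported here.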

Additional observations from a re-analysis of the deposited data

Results flagged for a closer look

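In 10 of the 92 group values tested (the CPM of 35 genes and 11 marker sums, in the controls and in the LPS fish), 1 library lay far from the other 4, by the ratio of its gap to the range of the group against a critical value of 0.71. Chance flags about 1 in 20 such groups. In the controls, replicate 4 lay above the others for the summed markers of ovary (0.998), acinar pancreas (0.991) and endocrine pancreas (0.878). It lay below the others for those of neutrophils (0.867) and of B and plasma cells (0.828). Control replicate 5 lay above the others for liver markers (0.83) and for ALCAM (0.799). In the LPS fish, replicate 4 was separate for hbaa1 (0.925) and NR1D1 (0.715), and replicate 2 for lyz (0.884).

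Among the same 35 genes, the LPS effect differed between 24 and 28 °C, by the difference of log2 fold changes in edgeR's quasi-likelihood test, for RASGEF1B (2.44), TAGAP (1.81), sowahd (1.43), PIKFYVE (1.6), il34 (1.21), ITPKC (1.44), gpr174 (1.42), ALCAM (2.82), SLC30A1 (1.87), ets2 (1.8), tnfb (2.48), cxcl8a (3.27) and ACOD1 (2.68). Without 24 °C control replicate 4, il34, gpr174, tnfb, cxcl8a and ACOD1 had nearly the same differences (1.22, 1.44, 2.45, 3.24 and 2.68) and no longer passed. Between 24 and 32 °C it differed for RASGEF1B (2.25), TAGAP (2.47), BHLHE40 (1.29) and PER1 (2.95), and all 4 passed without that library too.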

How the results depend on the processing

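The count of 3 called genes was 11 when genes were kept at 1 CPM or more in 5 libraries, 274 with DESeq2, 53 with a non-robust prior, 315 at an adjusted p under 0.10 and 0 with only the 9 libraries of 24 °C left without control replicate 4. Leaving out 1 library gave 0 to 292, from LPS replicate 4 to control replicate 2. Replicate numbers 2, 3, 4 and 8 occur in both groups, and the deviations of same-numbered libraries correlated at -0.0775, 0.363, -0.0634 and -0.139. These 4 values cannot decide whether the numbers pair the fish, and the main fit used no pairing. A replicate block gave 24 called genes in the fit of 30 libraries and 0 in that of 10. The 1007 higher genes at an unadjusted p under 0.05 stayed within 1.5 times, at 955 to 1151 with 1 library left out. The 2005 lower ones were 3048 with no filter, 691 under the replicate block with 10 libraries, and 749 to 2312 with 1 library left out, from control replicate 4 to control replicate 2. The 2 genes called without control replicate 4 became 0 with only the 9 libraries and, in alternatives chosen after seeing the data, 17 with DESeq2, 3 with limma voom and 3 at an adjusted p under 0.10. Of 2636 values of named genes under 21 alternatives, 24 turned sign, 8 of them without control replicate 4, and of 756 list medians 24 moved beyond the spread. Among the same 2636 values, a call was gained in 184 and lost in 13. Only the 3 called genes had a call to lose. Under limma voom, buc was at 0.070, ins at 1.905, c6ast4 at 1.897 and the second CRY1 gene at 0.087. Under the replicate block, ins was at 0.58 and c6ast4 at 1.24 with 30 libraries, and c6ast4 at 0.91 with 10. With the 9 libraries, buc was at 0.64, c6ast4 at 3.17 and the second CRY1 gene at 0.027. With 1 library left out, the ranges were -8.00 to 0.68 for buc, -2.22 to 0.028 for DNMT1, -3.14 to 5.46 for ins, -2.85 to 3.24 for c6ast4 and -0.23 to 0.076 for the second CRY1 gene, all highest without control replicate 4, -0.29 to 2.03 for lyz, -0.34 to 0.076 for cd79a and -0.16 to 0.17 for the second PER1 gene, which was at 0.0076 with the 1 CPM filter. Where no value above shows otherwise, the cause was not tested. The biological coefficient of variation within groups was 0.503 in the fit of all 30 libraries, with 24 °C control replicate 4 included. Such a spread limits the differences that 5 against 5 can show. A value for the 24 °C groups alone or without that library is not given here.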

Other observations

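Secreted defence proteins, iron handling and vessel genes were not part of the comparisons above, and none of their members passed an adjusted p under 0.05 in edgeR's quasi-likelihood test. Of 20 acute phase and antimicrobial genes, 6 had an unadjusted p under 0.05 on the higher side and 4 on the lower (median 0.27, and without control replicate 4 median 0.87 with 5 higher and 1 lower). CP (ENSDARG00000010312), the copper-carrying ferroxidase ceruloplasmin, had 78.6, 51.8, 79.7, 71.3 and 113 CPM in the controls and 367, 227, 185, 138 and 146 CPM in the LPS fish (log2 fold change 1.43 ± 0.48). SAA2 (ENSDARG00000045999), an acute phase protein, had 21.3, 42.0, 20.04, 25.0 and 119 CPM in the controls and 326, 68.5, 324, 20.5 and 75.5 CPM in the LPS fish (1.84 ± 0.69), and the peptidoglycan recognition protein pglyrp5 (ENSDARG00000068382) had 23.2 ± 9.66 CPM with LPS against 8.35 ± 6.42 CPM in the controls (1.47 ± 0.54). The galectin lgals9l1 (ENSDARG00000025903) was at 0.96 ± 0.36. Of 28 complement genes, 8 were above 0, 1 had an unadjusted p under 0.05 on the higher side and 2 on the lower (median -0.70, and without control replicate 4 median -0.59 with 0 higher and 1 lower). The higher one was properdin, cfp (ENSDARG00000094451), at 0.50 ± 0.24. Of 22 iron genes, 3 were on the higher side and 2 on the lower (median 0.04, and without control replicate 4 median -0.02 with 2 higher and 3 lower). The ferritin fthl27 (ENSDARG00000031776) had 1168 ± 306 CPM with LPS against 677 ± 143 CPM in the controls (0.79 ± 0.24). The iron sensor IREB2 (ENSDARG00000021466) was at -0.77 ± 0.26 and the biliverdin reductase BLVRA (ENSDARG00000059857) at -1.34 ± 0.52.

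Of 26 stroma and endothelium genes, 21 had a log2 fold change above 0 and 3 an unadjusted p under 0.05 on the higher side, among them the endothelial cadherin cdh5 (ENSDARG00000075549) with 202 ± 61.2 CPM with LPS against 123 ± 59.8 CPM in the controls (0.72 ± 0.29). The list had a median 0.28, and without control replicate 4 median 0.31 with 1 higher and 1 lower. Of 18 leukocyte adhesion genes, 3 were on the higher side and 1 on the lower (median 0.19, and without control replicate 4 median 0.19 with 2 higher and 0 lower), and the vascular adhesion molecule vcam1b (ENSDARG00000062479) had 644 ± 31.8 CPM with LPS against 441 ± 164 CPM in the controls (0.55 ± 0.21). Of 14 thrombocyte genes, 1 was on each side, PLEK (ENSDARG00000104325) at 0.39 ± 0.19 being the higher (median -0.28, and without control replicate 4 median -0.29 with 0 higher and 1 lower). Of 23 heat shock and cold-inducible genes, 2 were on each side (median 0.07, and without control replicate 4 median 0.22 with 2 higher and 1 lower). Of 20 enzymes of DNA and histone methylation, 0 were on the higher side and 5 on the lower (median -0.17, and without control replicate 4 median -0.08 with 2 higher and 2 lower). Without control replicate 4, the log2 fold changes were 1.5 for CP, 1.72 for SAA2, 1.36 for pglyrp5, 0.76 for fthl27, 0.70 for cdh5 and 0.47 for vcam1b.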
